A study of Homo sapiens with 12 samples.

Results

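This account concerns the cohesin subunit SMC1 against CTCF in ΔSCC4 HAP1 cells. Its members were the 12779 SMC1 peaks and the 37625 CTCF peaks of the ΔSCC4 chromatin immunoprecipitation sequencing (ChIP-seq) libraries, 50404 of the 267921 peaks in the 12 lists of the study. They were defined by genotype and antibody, from the sample titles, with earlier results of these data known. The study precipitated chromatin with antibodies against SMC1 or CTCF, or with control IgG, in 4 genotypes of HAP1, a near-haploid human line derived from a chronic myeloid leukaemia. The genotypes were wild-type, ΔWAPL, in which a blasticidin cassette was inserted into the gene of the cohesin release factor WAPL, ΔSCC4, in which a puromycin cassette was inserted at a CRISPR cut in the gene of SCC4 (MAU2), and ΔWAPL/ΔSCC4, made by disrupting SCC4 in ΔWAPL cells. The ΔWAPL and ΔSCC4 lines were clones, and all 4 genotypes share the mutant p53 of the parental line. Each genotype and antibody had 1 library, so there was no replicate, no test between genotypes was made, and all intervals cover counting error only. Peak lists hold no expression values, so neither the cell line nor the loss of SCC4 could be checked in them.

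Cohesin is a ring of SMC1, SMC3 and RAD21 with a STAG subunit, and it is loaded onto DNA by SCC2 and SCC4 and released by WAPL. CTCF is a zinc-finger protein that binds a long asymmetric motif, and cohesin collects where CTCF is bound. The motif has a direction, and the CTCF sites at the 2 ends of a chromatin loop mostly point their motifs towards each other. Where SMC1 lies in relation to CTCF in cells without SCC4, and at which CTCF sites it is found, was read here from peak positions.

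The motif learned from the strongest wild-type CTCF peaks was 19 bp long, and its most frequent bases read as follows.
consensus: TGGCCACCAGGGGGCGCTG
The strand that carries these G-rich letters was taken as the strand of a site, and its 3′ side is the side after the last base. A CTCF peak was called a motif site when its best match within 50 bp of the summit passed the score that 5% of windows 1000 bp away reached. The 3 plus-strand and the 3 minus-strand motif sites with the highest SMC1 fold enrichment in ΔSCC4 are given here as examples. Their SMC1 summits held 47 to 87 reads. Fold enrichment is the deposited ratio of summit reads to their local background. Every run is read along the motif strand from hg19, with 20 bp on each side of the motif, and capitals mark the motif.
chromosome 6, chr6:53036794-53036852, plus: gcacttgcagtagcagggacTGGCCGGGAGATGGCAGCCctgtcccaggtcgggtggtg
chromosome X, chrX:9963947-9964005, plus: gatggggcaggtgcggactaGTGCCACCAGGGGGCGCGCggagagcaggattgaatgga
FGF1, chr5:142035401-142035459, plus: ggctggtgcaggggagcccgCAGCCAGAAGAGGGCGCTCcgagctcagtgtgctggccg
DDX11L2, chr2:114361811-114361869, minus: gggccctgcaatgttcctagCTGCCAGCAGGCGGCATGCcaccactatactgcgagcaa
GGTLC4P, chr22:24643682-24643740, minus: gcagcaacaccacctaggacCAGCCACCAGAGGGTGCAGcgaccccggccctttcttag
chromosome 7, chr7:45299774-45299832, minus: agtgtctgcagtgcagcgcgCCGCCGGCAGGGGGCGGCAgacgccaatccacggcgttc

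At these 6 sites the SMC1 summit lay within 33 bp of the centre of the motif. The intergenic site on chromosome 6, 18094 bp from the nearest transcript start, had an SMC1 fold enrichment of 16.9 and a summit 33 bp to the 5′ side. The intergenic site on the X chromosome, 19334 bp from the start of WWC3, had 16.6 and a summit 16 bp to the 5′ side. The site in an intron of FGF1, the gene of a fibroblast growth factor, had 16.4 and a summit 14 bp to the 3′ side. All 3 minus-strand sites were intergenic and had their SMC1 summit on the 3′ side. The distance was 14 bp at the site 2988 bp from the start of the pseudogene DDX11L2, where SMC1 fold enrichment was 18.7. It was 8 bp at the site near GGTLC4P, with 16.4, and 3 bp at the site on chromosome 7, with 15.8. The SMC1 peaks at all 6 sites were also present in the other 3 genotypes. At the chromosome 6 site wild-type cells had an SMC1 fold enrichment of 12.7, ΔWAPL cells 17.8 and ΔWAPL/ΔSCC4 cells 15.4, and at DDX11L2 these were 15.3, 18.4 and 17.9.

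The first comparison asked how closely the 2 proteins lay together. Overlap was counted at 1 bp or more. Of the CTCF peaks, 12165 carried an SMC1 peak (32.3%), and of the SMC1 peaks 12162 lay at a CTCF peak (95.2%). The first share depended on which peaks were admitted, at 16.4% with a −log10 q of at least 10 in both lists and 63.9% with only the strongest CTCF peaks, as many as there were SMC1 peaks. The relation was almost 1 to 1, since 12143 of these SMC1 peaks touched 1 CTCF peak and 19 touched more, while 12149 of the CTCF peaks touched 1 SMC1 peak and 16 touched more. The shorter peak of a pair was on median contained in the longer by 100% of its length, and 99.3% of the SMC1 summits lay inside the CTCF interval. The median distance between the SMC1 and the CTCF summit was 27 bp (95% interval 26 to 27 bp). Distances were taken only for the 12162 SMC1 peaks that overlapped a CTCF peak, so the overlap itself limits them. Of these peaks, 22.1% had a distance of at most 10 bp, 77.3% of at most 50 bp and 95.5% of at most 100 bp. In 542 of them it was over 100 bp and in 61 over 250 bp. The other genotypes had medians of 26 bp in wild-type, 29 bp in ΔWAPL/ΔSCC4 and 27 bp in ΔWAPL cells.

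Strong SMC1 peaks lay closer to CTCF than weak ones. With the SMC1 peaks split into 4 groups of equal number by fold enrichment, the share at a CTCF peak was 86.0% in the weakest group and 96.5%, 98.6% and 99.6% in the next 3. The median distance fell from 37 bp (36 to 40 bp) in the weakest group to 29, 25 and 20 bp (19 to 21 bp), and the share of summits over 100 bp away from 11.8% to 0.628%. The median number of reads at the SMC1 summit, as recovered from the lists, was 14, 16, 21 and 31 in the same order. Peak height, read number and distance thus moved together, and the part that read number plays in the distance was not tested.

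The second comparison asked on which side of the CTCF motif SMC1 lay. In ΔSCC4 cells 11299 SMC1 peaks were at a motif site. Their summits were centred on the motif. The median offset from the motif centre along the motif strand was 0 bp (-1 to 1 bp), and 5577 summits lay on the 3′ side against 5625 on the 5′ side, a share of 49.8% (48.9% to 50.7%). The middle 90% ran from -71 to 72 bp. Summits over 50 bp away lay on the 3′ side in 10.4% and on the 5′ side in 9.72% of the cases.

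The CTCF summit itself did not lie on the motif centre. It was displaced by a median of -7 bp (-8 to -7 bp), that is to the 5′ side, and 34.5% of the CTCF summits were on the 3′ side. By construction it cannot lie farther than the searched 50 bp. Measured from the CTCF summit, the SMC1 summit was therefore on the 3′ side, by a median of 6 bp (5 to 7 bp), in 56.0% of the cases (55.1% to 56.9%). Whether SMC1 is said to lie on the 3′ side of CTCF in ΔSCC4 cells thus depends on the reference point, the CTCF summit or the motif.

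**Figure D1:**
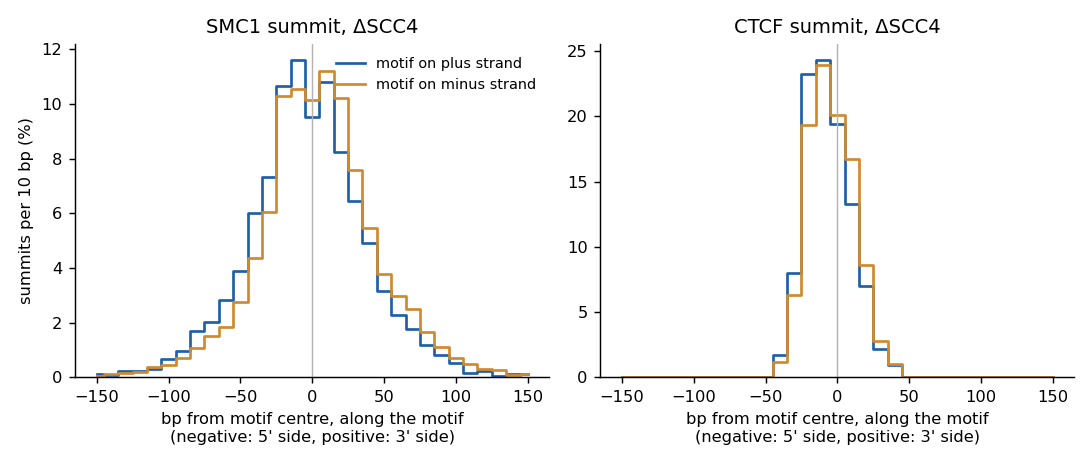
Position of the SMC1 summit (left) and of the CTCF summit (right) for the 11299 ΔSCC4 SMC1 peaks at motif sites, as the percentage of summits per 10 bp (the vertical scales differ), against the distance from the motif centre in bp along the motif, for motifs on the plus and the minus strand. SMC1 is spread around 0 with medians of -5 bp on the plus and 3 bp on the minus strand, and CTCF lies to the 5′ side with medians of -9 and -6 bp.

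The strands did not give the same value. The median SMC1 offset was -5 bp (-6 to -3 bp) at 5664 plus-strand motifs and 3 bp (2 to 5 bp) at 5635 minus-strand motifs, so that SMC1 summits were displaced towards lower coordinates by 4 bp irrespective of the motif, and along the motif by -1 bp. CTCF summits had a displacement along the genome of -1.5 bp. The middle of the SMC1 interval had none. Its median was 1.5 bp to the 3′ side on both strands, and 51.6% of the intervals (50.7% to 52.6%) had their middle on the 3′ side. The SMC1 summits of the other genotypes were displaced along the genome by -3 to -3.5 bp.

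Along the motif, SMC1 in ΔSCC4 cells had the smallest 3′ share of the 4 genotypes. The share on the 3′ side of the motif centre was 51.2% (50.4% to 51.9%) in wild-type, 51.7% (51.1% to 52.4%) in ΔWAPL/ΔSCC4 and 53.9% (53.2% to 54.5%) in ΔWAPL cells. The intervals of ΔSCC4 and wild-type overlapped. These genotypes have different sites, so the same was measured at the 9896 ΔSCC4 motif sites that overlapped exactly 1 SMC1 peak in each genotype. There the 3′ share was 49.9% (48.9% to 50.9%) in ΔSCC4, 51.2% (50.2% to 52.2%) in wild-type, 50.9% (50.0% to 51.9%) in ΔWAPL/ΔSCC4 and 54.1% (53.1% to 55.1%) in ΔWAPL cells. The intervals of the first 3 overlapped, and that of ΔWAPL lay above them. The middle of the SMC1 interval had a median of 1.5 bp (0.5 to 2.5 bp) in ΔSCC4 and 8.5 bp (7.5 to 9.5 bp) in ΔWAPL cells at these sites, where the SMC1 peaks of ΔSCC4 had a median width of 300 bp and those of ΔWAPL 434 bp. The difference in width moved with the difference in position, and its part in the latter was not tested.

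SMC1 strength changed the spread but not the centre of the SMC1 summits. The median offset from the motif centre was -1, 1, 0 and -1 bp in the 4 groups of rising fold enrichment. Summits over 50 bp to the 3′ side and to the 5′ side made up 17.7% and 17.4% of the weakest group, and 4.36% and 3.76% of the strongest. The 3′ share against the CTCF summit was 53.2% in the weakest group and 58.5% in the strongest. Among the strongest group, the SMC1 summits farthest to the 3′ side lay 209 bp from a plus-strand motif on chromosome 5 (139145210-139145228), in an intergenic stretch, and 178 bp from a minus-strand motif on chromosome 15, 5929 bp from the start of GOLGA6L4. The farthest to the 5′ side had offsets of -338 bp at a plus-strand motif beside a start of DTWD2 and -273 bp at a plus-strand motif on chromosome 15, 62 bp from the start of an unnamed transcript (ENSG00000279708). The summits over 50 bp away were not marked by a further CTCF peak, as such a peak lay within 1 kb of 1.88% of those on the 3′ side, 2.55% of those on the 5′ side and 2.104% of those nearer than 50 bp.

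The third comparison asked which CTCF sites carried SMC1. CTCF fold enrichment separated them most. Among 10 groups of equal size, the share with SMC1 was 5.55%, 4.94% and 6.51% in the weakest 3, then rose in each group, to 22.5% in group 5, 41.8% in group 7 and 76.6% (75.3% to 78.0%) in group 10. Of all pairs of a CTCF peak with and one without SMC1, the one with SMC1 had the higher fold enrichment in a share of 0.822. The other genotypes rose in the same order of groups, and ΔSCC4 had the lowest share in each group from 2 upwards. Where both were called, the height of SMC1 followed that of CTCF only loosely. The median SMC1 fold enrichment was 5.34 in group 5 and 7.04 in group 10, and over 12162 SMC1 peaks Pearson's r of the log2 fold enrichments was 0.393 and Spearman's rho 0.372, given as a description, since the sites share their libraries and local copy number.

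**Figure D2:**
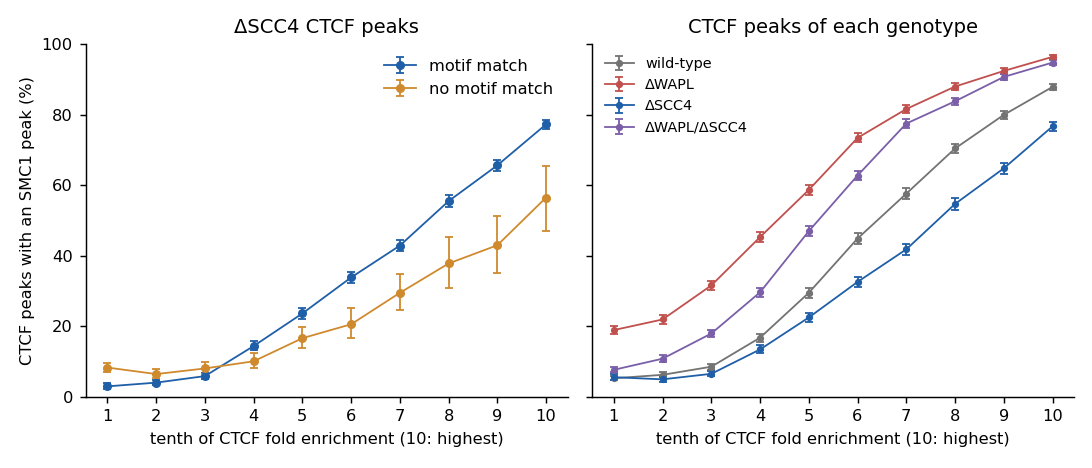
Percentage of CTCF peaks with an SMC1 peak in 10 groups of rising CTCF fold enrichment, with 95% Wilson intervals, for ΔSCC4 peaks with and without a motif match (left) and for all CTCF peaks of the 4 genotypes (right). In ΔSCC4 the share rises from 5.55% to 76.6%, below the other genotypes in groups 2 to 10.

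The CTCF sites of highest fold enrichment without SMC1 were exceptions to this rule. In reads they were not the highest. The 3 of highest fold enrichment with a motif match had 77, 66 and 72 reads at the CTCF summit, below the median of 92 in group 10. The SMC1 sites printed above had 65 to 188. These 3 are shown because their CTCF fold enrichment exceeded that of every SMC1 site printed above, from hg19 and with the motif in capitals.
chromosome 1, chr1:147553634-147553692, minus: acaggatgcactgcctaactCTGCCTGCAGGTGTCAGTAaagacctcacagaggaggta
chromosome 7, without SMC1, chr7:143534488-143534546, minus: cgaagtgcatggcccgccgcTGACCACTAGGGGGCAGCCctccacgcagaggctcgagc
DDX11L16, chr16:61001-61059, minus: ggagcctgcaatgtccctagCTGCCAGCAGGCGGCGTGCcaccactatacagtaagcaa
The site on chromosome 1, in an intron of the transcript XXyac-YX155B6.2 and 804 bp from its start, had a CTCF fold enrichment of 34.4 in ΔSCC4 and no SMC1 peak in any genotype, and the CTCF values of wild-type, ΔWAPL and ΔWAPL/ΔSCC4 cells were 26.4, 32.5 and 26.1. The intergenic site on chromosome 7 had 30.1, and SMC1 was called there only in ΔWAPL cells, at 7.71. The site on chromosome 16, 488 bp from the start of DDX11L16, had 29.2, and SMC1 was called there only in ΔWAPL cells, at 16.2. Its 59 bp window shared 52 bases with the DDX11L2 window, which carried the strongest of the named SMC1 peaks. Each of the printed windows occurred 1 time in the genome without mismatch. The methods name no filter on reads that match several places, so the assignment of reads between such copies, and with it the contrast of these sites, is uncertain.

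Sites without SMC1 in ΔSCC4 were not all without SMC1 elsewhere. Of the 12165 ΔSCC4 CTCF peaks with SMC1, 89.7% overlapped an SMC1 peak of wild-type cells, 96.7% one of ΔWAPL cells and 96.7% one of ΔWAPL/ΔSCC4 cells. Of the 25460 without, 25.0%, 53.3% and 45.3% did. Among the 879 in the strongest CTCF group, these shares were 64.5%, 90.7% and 81.6%. The number of peaks called differs between the SMC1 lists, so a lower share does not separate fewer occupied sites from weaker signal at the same sites.

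A motif match was more frequent at CTCF peaks with SMC1. It was found in 92.9% (92.4% to 93.3%) of those with SMC1 and 76.2% (75.6% to 76.7%) of those without, against 5.10% of the flanking windows. The difference of 16.7 percentage points was 6.39 with a −log10 q of at least 10 in both lists and 3.07 among the strongest CTCF peaks. Read the other way, SMC1 was present at 36.8% of motif sites and 12.5% of CTCF peaks without a match, and at 32.6% and 23.6% when averaged over the 10 groups of CTCF fold enrichment with equal weight. In the strongest group the shares were 77.2% (75.9% to 78.6%) and 56.5% (47.1% to 65.5%). In the 3 weakest groups the order was reversed, with 4.43% (3.97% to 4.94%) of motif sites and 7.45% (6.71% to 8.27%) of the others carrying SMC1. Of those 327 peaks with SMC1 but no match, however, 218 lay at an IgG peak of some genotype. Without IgG peaks the shares were 4.31% and 2.65% (2.20% to 3.19%), in the order of the stronger groups.

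The quality of the match and the base composition around it moved with SMC1 as well. Among motif sites split into 5 groups by score, the share with SMC1 rose from 19.7% to 58.5%, and from 26.9% to 38.4% when averaged over the groups of CTCF strength. For the G and C content within 100 bp of the summit, it rose from 17.6% in the lowest group (up to 39.8% G and C) to 47.4% in the highest (59.2% and above), and from 19.7% to 41.9% at equal CTCF strength. The same averaged shares ran from 25.4% to 52.1% in wild-type, from 39.6% to 82.6% in ΔWAPL and from 45.0% to 59.4% in ΔWAPL/ΔSCC4 cells. A gradient with base composition was thus present in all 4 genotypes.

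**Figure D3:**
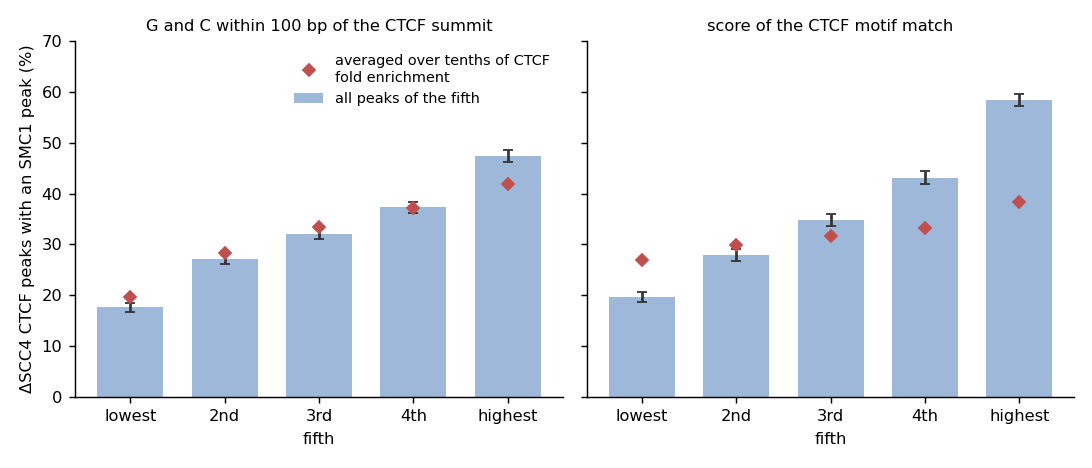
Percentage of ΔSCC4 CTCF peaks with an SMC1 peak in 5 groups of equal size by G and C content (left) and by motif score (right), as bars with 95% Wilson intervals, and as diamonds after averaging over 10 groups of CTCF fold enrichment. The diamonds rise from 19.7% to 41.9% with G and C content and from 26.9% to 38.4% with motif score.

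Single bases of the motif differed between sites with and without SMC1. Positions 8 and 18 had the largest differences at equal CTCF strength, and the positions named here were chosen after their values were seen. At equal CTCF strength, position 8, counted from 1 at the first base of the consensus, was T at 25.5% of the motif sites with SMC1 and 44.1% of those without, and C at 50.9% and 36.0%. Position 18 was T at 32.7% and 46.5%, and C at 40.0% and 31.0%. Outside the motif, position 25, counted on past its end, was C at 44.2% and 36.9%. C and G were also more frequent with SMC1 at nearly all other flanking positions. Examples are C at position 36, at 29.9% and 23.6%, and G at position 33, at 32.7% and 26.4%. The CpG at positions 15 and 16 was present in 37.6% (36.7% to 38.5%) of motif sites with SMC1 and 23.9% (23.3% to 24.5%) of those without, and SMC1 was found at 47.8% of the sites that had it and 32.3% of those that did not, without regard to CTCF strength. It was the most frequent CpG of the motif. Others present in at least 1.32% of the sites with and without SMC1 showed like differences. Among them were 57.0% against 36.3% for positions 17 and 18, 54.4% against 35.7% for positions 1 and 2 and 53.8% against 36.4% for positions 7 and 8. The rarest CpGs, in at most 0.87% of the sites with or without SMC1, did not. There SMC1 was found at 26.7% to 37.9%, against 36.8% without the CpG, with intervals that included 36.8%.

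The place of a CTCF peak moved with SMC1 as well. Of the CTCF peaks within 1 kb of a transcript start, 35.3% carried SMC1. The share was 31.5% at 1 to 10 kb, 31.8% at 10 to 50 kb and 31.2% over 50 kb away. At equal CTCF strength these were 35.0%, 30.5%, 32.05% and 35.4%, so that the rise over 50 kb appeared only after averaging. Intergenic peaks had SMC1 in 35.3% and intronic peaks in 29.6% at equal CTCF strength. By the distance to the next CTCF peak, the share differed little, at 30.96% at 1 to 5 kb, 33.1% at 5 to 20 kb, 32.5% at 20 to 100 kb and 30.25% over 100 kb. At equal CTCF strength it was 40.2%, 29.0%, 31.0% and 34.2% in the same order. Median CTCF fold enrichment was 9.91 at 1 to 5 kb and 13.06 at 5 to 20 kb. The part of this difference, and of a background counted in 10 kb, in the averaged shares was not tested. The share was between 29.3% and 37.1% on each of chromosomes 1 to 22 and X. Motif strand made little difference, at 36.4% (35.7% to 37.2%) of plus-strand and 37.2% (36.4% to 38.0%) of minus-strand sites.

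The last comparison asked how neighbouring occupied sites were oriented. A pair was called convergent when the left motif was on the plus and the right on the minus strand, divergent in the opposite case and tandem when both were on 1 strand. Along a chromosome, convergent and divergent pairs alternate, so their numbers cannot differ by more than 1 per chromosome, and the tandem share and the gaps carry the information. The 11293 occupied motif sites of ΔSCC4, of which 50.2% were on the plus strand, formed 11269 neighbouring pairs at a median gap of 133 kb. Of these, 3126 were convergent (27.7%, 26.9% to 28.6%), 3127 divergent (27.7%) and 5016 tandem (44.5%, 43.6% to 45.4%). From the strand shares alone 25.0% would be convergent and 50.0% tandem. Neighbouring CTCF sites without SMC1 were tandem in 52.2% (51.5% to 52.9%). The strand thus alternated more often along occupied sites than along unoccupied ones. The tandem share of occupied sites was 46.1% (45.4% to 46.9%) in wild-type, 48.4% (47.7% to 49.0%) in ΔWAPL/ΔSCC4 and 50.1% (49.5% to 50.7%) in ΔWAPL cells, so that ΔSCC4 had the lowest of the 4.

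Convergent pairs were farther apart than divergent ones. The median gap was 153 kb (146 to 161 kb) for convergent and 110.1 kb (104 to 117 kb) for divergent pairs of occupied ΔSCC4 sites, with 138 and 132 kb for the tandem pairs on the plus and the minus strand. The same order held without SMC1, at 91.6 and 59.5 kb for convergent and divergent pairs of unoccupied ΔSCC4 sites. In occupied wild-type sites it was 116.4 and 69.35 kb. Convergent pairs made up 10.2% (8.04% to 12.8%) of the 619 pairs 1 to 10 kb apart, in which 33.1% (29.5% to 36.9%) were divergent. They were 21.0% against 34.6% at 10 to 50 kb, 29.8% against 28.4% at 50 to 100 kb and 32.4% (30.5% to 34.2%) against 26.5% (24.8% to 28.3%) at 100 to 200 kb. Unoccupied sites had 20.1% convergent against 26.9% divergent pairs at 1 to 10 kb, 22.7% against 23.8% at 50 to 100 kb and 25.5% against 22.3% at 100 to 200 kb, so that at 50 to 100 kb their order was the opposite of that of occupied sites, with overlapping intervals in both. The excess of divergent pairs at short gaps was larger among occupied sites, where the intervals of the convergent share, 8.04% to 12.8% and 18.4% to 21.9%, did not overlap.

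**Figure D4:**
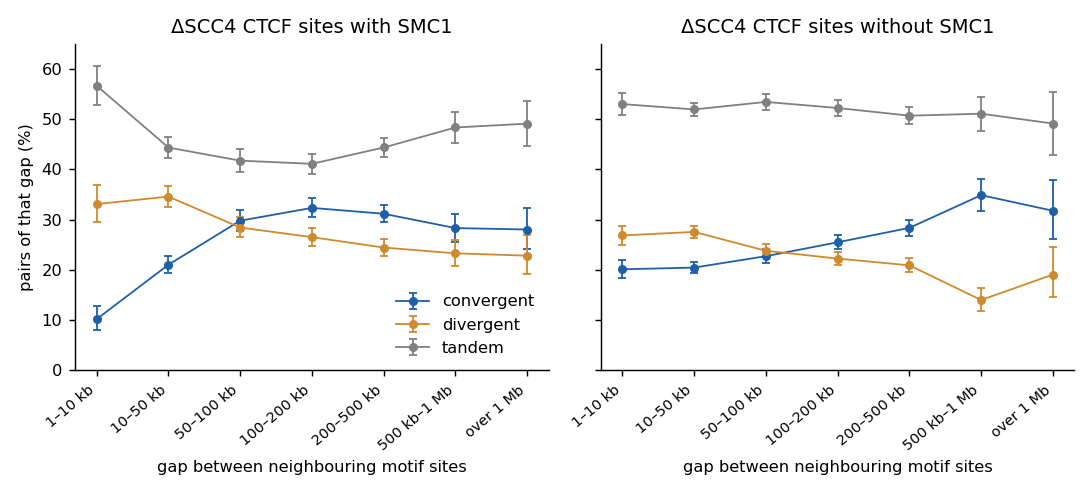
Share of convergent, divergent and tandem pairs among neighbouring ΔSCC4 CTCF motif sites with SMC1 (left) and without SMC1 (right) by the gap between them, with 95% Wilson intervals. With SMC1, convergent pairs rise from 10.2% at 1 to 10 kb to 32.4% at 100 to 200 kb, where the tandem share is lowest at 41.1%.

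A further view started from all 30684 ΔSCC4 motif sites and asked whether SMC1 was present according to the next motif site ahead, on the 3′ side of the motif. When that site was on the opposite strand, facing the first, 39.7% (38.9% to 40.5%) of 15224 sites carried SMC1, against 34.0% (33.2% to 34.7%) of 15436 sites when it was on the same strand. The difference was 5.70 percentage points (4.62 to 6.78), and 5.68 at equal CTCF strength. It depended on the gap. At 1 to 10 kb it was negative, at -4.58 points (-7.45 to -1.67). It was 3.93 points (2.08 to 5.78) at 10 to 50 kb, 9.40 points (7.02 to 11.8) at 50 to 100 kb, 9.87 points (7.25 to 12.5) at 100 to 200 kb and 4.28 points (0.909 to 7.63) at 200 to 500 kb. Behind the motif, on the 5′ side, the strand of the next site made a difference of 0.242 points (-0.838 to 1.32), and of -1.93 at equal CTCF strength.

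The same difference for the site ahead was smaller in the other genotypes. It was 2.52 points (1.46 to 3.57) in wild-type, -0.275 points (-1.27 to 0.720) in ΔWAPL/ΔSCC4 and -1.80 points (-2.76 to -0.849) in ΔWAPL cells, or 3.26, 1.18 and -0.659 at equal CTCF strength. At 100 to 200 kb it was 5.80 points (3.20 to 8.39) in wild-type, 3.38 (0.947 to 5.81) in ΔWAPL/ΔSCC4 and -0.895 (-3.28 to 1.502) in ΔWAPL cells. The interval of ΔSCC4 over all gaps lay above those of the other 3, and at 100 to 200 kb it lay above those of ΔWAPL and ΔWAPL/ΔSCC4 and overlapped that of wild-type. The share of CTCF peaks with SMC1, 32.3% in ΔSCC4, 40.7% in wild-type, 52.2% in ΔWAPL/ΔSCC4 and 60.8% in ΔWAPL cells, moved in the opposite order, and its part in these differences was not tested.

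**Figure D5:**
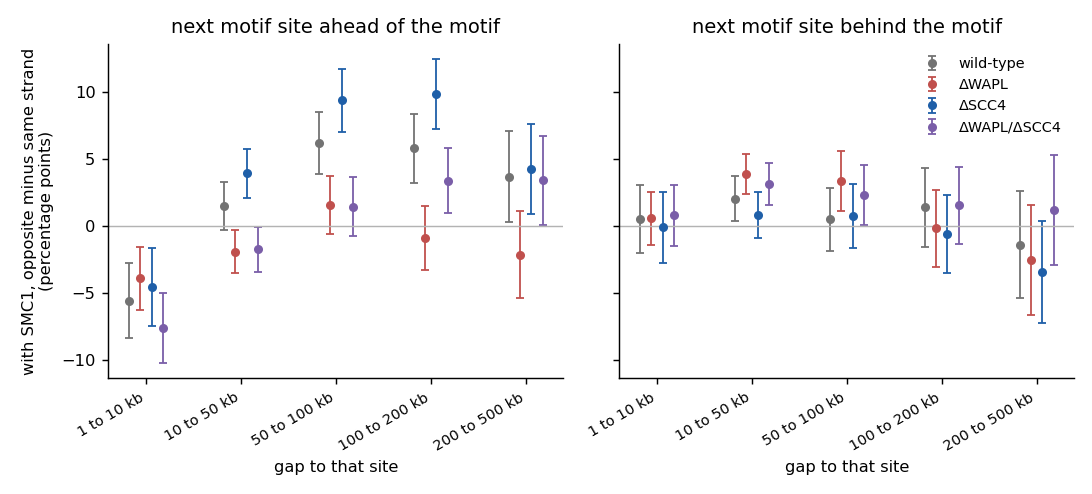
Difference in the percentage of CTCF motif sites with SMC1 between sites whose next motif site lies on the opposite and on the same strand, in percentage points with 95% Newcombe intervals, by the gap to that site, for the next site ahead of the motif (left) and behind it (right). Ahead, ΔSCC4 reaches 9.40 and 9.87 points at 50 to 200 kb, and behind, its intervals include 0 in all 5 gap classes.

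Both sites of a pair of adjacent motif sites carried SMC1 more often when the pair was convergent and over 50 kb apart. At 100 to 200 kb this was so for 318 of 1515 convergent pairs (21.0%, 19.01% to 23.1%). It was so for 13.3% (11.3% to 15.7%) of divergent and 13.03% (11.7% to 14.4%) of tandem pairs. Single sites at this gap differed as well. SMC1 was at 45.7% of sites in convergent pairs and 35.8% of sites in divergent pairs. In tandem pairs it was at 35.8% of the rear and 36.4% of the front sites. Whether both sites carried SMC1 more often than these single shares give was not tested. At 1 to 10 kb it was 7.28% (5.70% to 9.26%) of convergent, 14.9% of divergent and 13.5% of tandem pairs. Over all orientations, a site 50 to 100 kb from its right neighbour had SMC1 in 40.0% (38.0% to 42.0%) of the cases when that neighbour had it and in 34.8% (33.3% to 36.3%) when not. At 100 to 200 kb these shares were 40.0% (37.8% to 42.2%) and 38.6% (36.9% to 40.4%), and their intervals overlapped.

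The named pairs are strong examples of neighbours among occupied sites, not of adjacent motif sites. Their windows, from hg19 along the motif strand with the motif in capitals, are those of the convergent and of the divergent pair 20 to 500 kb apart whose weaker SMC1 peak was the strongest.
convergent left, chr6:166298503-166298561, plus: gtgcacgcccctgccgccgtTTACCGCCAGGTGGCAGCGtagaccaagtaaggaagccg
convergent right, chr6:166511538-166511596, minus: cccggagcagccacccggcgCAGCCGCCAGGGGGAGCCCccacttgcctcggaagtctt
divergent left, chr11:123118073-123118131, minus: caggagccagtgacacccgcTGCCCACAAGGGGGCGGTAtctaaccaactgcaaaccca
divergent right, chr11:123172485-123172543, plus: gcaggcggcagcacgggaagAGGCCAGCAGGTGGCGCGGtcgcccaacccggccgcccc
The convergent pair was 213 kb apart, with its left site in an intron of PDE10A, a phosphodiesterase, and 2 further CTCF peaks between. SMC1 fold enrichment was 14.7 at the left and 13.3 at the right site in ΔSCC4. In the same order it was 11.02 and 13.9 in wild-type, 14.2 and 17.5 in ΔWAPL, 11.6 and 16.2 in ΔWAPL/ΔSCC4 cells. The SMC1 summits lay 6 and 5 bp to the 5′ side of the motif centres. The divergent pair was 54.4 kb apart and intergenic, with 1 further CTCF peak between. It had SMC1 at 10.8 and 12.1 and summits 50 and 13 bp to the 3′ side. A tandem pair on the plus strand on chromosome 7, 85.0 kb apart with its right site 93 bp from the start of the kinase gene LMTK2, had SMC1 at 11.8 and 12.1. A tandem pair on the minus strand on chromosome 1, 275 kb apart with its right site in an intron of SLC35F3, had 12.3 and 12.1. Both tandem pairs had 1 further CTCF peak between their sites.

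At gene clusters with well-known CTCF sites, SMC1 in ΔSCC4 was found at some of the sites and not always at those of strongest CTCF. The counts per cluster are small and stand beside the 32.3% of all ΔSCC4 CTCF peaks with SMC1. The HOXA cluster, transcription factors of the body axis, had 4 CTCF peaks. SMC1 was at 2 of them, a plus-strand site 389 bp from a HOXA6 start (CTCF 22.1, SMC1 8.19) and a minus-strand site in HOXA10 (CTCF 18.97, SMC1 4.87), which face each other. It was not called at the minus-strand site between them (CTCF 17.3) nor at the plus-strand site in HOXA13 (CTCF 11.4). In the HOXD cluster 3 of 5 CTCF peaks held SMC1, but not the strongest, with a CTCF fold enrichment of 20.1, and 2 further SMC1 peaks had no CTCF peak. The protocadherin alpha cluster, whose variable exons each have their own promoter, had 14 CTCF peaks, 11 of them on plus-strand motifs and 1 on a minus-strand motif. SMC1 was at 3, all on the plus strand and all at the right-hand end, in PCDHA11 (CTCF 11.5, SMC1 4.12), in PCDHA13 (13.9 and 5.57) and at PCDHAC1 (18.8 and 7.74). The strongest CTCF peak of the cluster, in PCDHA5 with 20.0, held none. In the gamma cluster 1 of 8 held SMC1, on a minus-strand motif at the right-hand end of the cluster. The nearest annotated transcript start, 4427 bp away, was one of PCDHGC3. The variable exons of these clusters resemble each other, so reads there may be misplaced between them. In the region of IGF2 and H19, an imprinted growth factor and a non-coding RNA, from one gene to the other with both included, SMC1 was at 2 of 10 CTCF peaks. They were a plus-strand site 32481 bp from H19 (CTCF 18.2, SMC1 6.79) and a minus-strand site in IGF2 (11.7 and 3.71). The 4 CTCF peaks within 1 kb of an H19 start, with fold enrichments of 3.73 to 7.62, had none.

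The 15 genes of cohesin, its regulators and CTCF, each with 10 kb on both sides, had 43 CTCF peaks, of which 14 held SMC1, a share of 32.6% (20.5% to 47.5%) that includes the 32.3% of all. MAU2, the gene that was cut, had 4 CTCF peaks, 3 with SMC1, the strongest at a CTCF fold enrichment of 22.8 with SMC1 at 8.14. STAG2 had SMC1 at 3 of 8, and CTCF and PDS5B at 2 each. The loader gene NIPBL had 5 CTCF peaks and WAPL 1, and none held SMC1. In all, 8 of the 15 genes had a CTCF peak with SMC1.

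The 617 SMC1 peaks without CTCF were of another kind. Of these, 425 lay within 1 kb of a transcript start (68.9%, 65.1% to 72.4%), against 22.2% of the SMC1 peaks at CTCF. They were weaker, with a median fold enrichment of 4.49 against 5.99 and a median of 14 against 19 summit reads, and had a median G and C content of 66.2% against 52.2%. A motif match at the SMC1 summit was found in 24.3% (21.1% to 27.9%), above the 5.02% of their flanks. The flanks were not matched for G and C content, and its part in this difference was not tested. A CTCF peak of some genotype covered 176 of the 617 SMC1 peaks (28.5%), and 42 (6.81%) lay at an IgG peak. Wild-type cells had an SMC1 peak at 39.5% of them, ΔWAPL cells at 66.5% and ΔWAPL/ΔSCC4 cells at 44.9%, against 89.7%, 96.7% and 96.7% of the SMC1 peaks at CTCF. The 3 strongest away from IgG peaks were all in exons of non-coding transcripts and present in all 4 genotypes. They lay 344 bp from a start of the pseudogene WASH2P, with SMC1 fold enrichments of 9.73, 8.93, 13.8 and 12.2 in ΔSCC4, wild-type, ΔWAPL and ΔWAPL/ΔSCC4 cells, 404 bp from that of ENSG00000249483 (9.43, 9.49, 14.3 and 8.72 in the same order) and 34 bp from that of WDR11-DT (8.23, 6.21, 13.97 and 8.65). No CTCF peak of any genotype covered them. WASH2P has near-identical copies elsewhere, so its value is uncertain.

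Depth was similar in the lists that were compared. Average coverage, solved from the peak values, was 8.41 reads per kb for SMC1 and 7.42 for CTCF in ΔSCC4, within 6.53 to 8.41 over the SMC1 and CTCF lists of all genotypes. Because SMC1 summits held a median of 19 reads and CTCF summits 38, a CTCF peak without an SMC1 peak is one at which SMC1 was not detectable at this depth, and SMC1 in fewer cells cannot be told apart from less SMC1 in each cell. The methods name IgG as the control, but at least 99.98% of the backgrounds above the floor were whole reads in 10 kb of the library itself. Removing peaks at IgG peaks changed the share of CTCF peaks with SMC1 to 31.7%.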

How the data were processed

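Per the labels and methods, the authors mapped ChIP-seq reads to hg19 with Bowtie2 and called peaks per library with MACS2 2.1.1. The deposited lists give each peak's interval, summit, fold enrichment (a ratio of summit reads to local background) and −log10 p and −log10 q values. The calling threshold was not given in the sources used here, and the lists were used as deposited, so shares and genotype comparisons rest on the number of peaks in them. The authors' values were used to describe, rank and filter peaks, and positions are 1-based. Summit reads were solved from fold enrichment and −log10 p, with 1 whole-number solution for at least 99.7% of peaks.

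Peaks overlapping by at least 1 bp were joined, and an SMC1 peak on several CTCF peaks was given the nearest summit. The motif was learned from 1000 wild-type CTCF windows on odd-numbered chromosomes. Mitochondrial peaks were left out of motif counts because that sequence differs between hg19 and the GRCh37 FASTA used. Places and starts came from GENCODE 44 mapped to GRCh37, and names are those of the gene holding the summit or of the nearest start. Shares have 95% Wilson, medians order-statistic and differences Newcombe intervals. Peaks are not replicates of a genotype. Functions were tested on simulated data. Python 3 with numpy, scipy, pandas and pysam was used.

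The named sites were the 3 strongest SMC1 peaks per motif strand, the 3 strongest CTCF peaks without SMC1 and SMC1 peaks without CTCF, the strongest pair 20 to 500 kb apart of each orientation and the 2 farthest summits per side, off chromosomes 8 and Y and off IgG peaks. The members, lists, rules and comparisons were chosen with earlier results of these data known. Alternatives were stricter q values, IgG peaks removed, other overlaps, motif settings, chromosomes, the strongest CTCF peaks only, 1 to 1 pairs and restricted gaps.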

Additional observations from a re-analysis of the deposited data

Results flagged for a closer look

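In ΔSCC4 cells, the share of CTCF motif sites with SMC1 was 5.70 percentage points higher when the next motif site ahead was on the opposite strand, while in ΔWAPL cells it was lower, at -1.80 points. At gaps of 10 to 50 kb the difference was 3.93 points in ΔSCC4, -1.93 in ΔWAPL and -1.76 in ΔWAPL/ΔSCC4 cells. Averaged over 10 groups of CTCF fold enrichment these were 4.17, -1.18 and -0.276, so that the last was near 0, and over all gaps they were 5.68 in ΔSCC4 and -0.659 in ΔWAPL cells. These were singled out because the difference had opposite signs in these genotypes. The difference between genotypes was not tested, since each has 1 library per antibody.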

How the results depend on the processing

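Of 72 values recomputed for 8 results under 13 settings, 53 stayed within the 95% interval of the reported value and 19 left it. Of these values 0 changed sign, but shares and distances cannot change sign. The offset from the motif centre and the share on its 3′ side stayed within their intervals under every setting run. The latter was 49.8% as reported and 50.07% with −log10 q of at least 5, on the other side of 50%. The share of SMC1 peaks at CTCF became 97.3% with −log10 q of at least 5 in both lists, 98.7% with at least 10, 94.7% with summits at most 250 bp apart and 64.0% with only the strongest CTCF peaks, as many as SMC1 peaks. The share of CTCF peaks with SMC1 became 28.6%, 16.4%, 31.7% without IgG peaks and 63.9% with the strongest CTCF peaks. The median distance became 25, 21 and, with the strongest CTCF peaks, 25 bp. The difference in motif matches became 13.8, 6.39, 19.2 without IgG peaks, 3.07 with the strongest CTCF peaks and 24.8 points with a motif threshold that 1% of flanking windows pass. The convergent share became 26.7% with no unoccupied CTCF peak between and 28.8% for gaps of 10 kb to 1 Mb. The difference for the site ahead, with alternatives chosen after seeing the data, became 7.33 points with the 1% threshold. The cause of these shifts was not tested. With 1 library per genotype and antibody no replicate could be left out. No paired analysis was possible because each group has 1 library and no result comes from a test.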
